A study of Mus musculus with 4 samples.

Results

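The mitotic cell cycle and spindle genes are 41 genes whose products drive and carry out cell division. They were chosen by gene symbol and are the mitotic kinases and cyclins, the spindle checkpoint and anaphase genes, and the genes of the kinetochore, spindle, midzone, cytokinesis and condensin, together with the transcription factor Foxm1. All 41 were found among the 56748 genes of the deposited count table, each as 1 row.

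Bulk RNA sequencing compared mouse lungs carrying metastases of 4T1, a mouse triple-negative breast cancer (TNBC) cell line, between saline (2 libraries) and cmLumiOpto/PARPi (2 libraries). For this model, 4T1 cells carrying firefly luciferase were injected into the tail vein of young adult BALB/cJ females, which are immunocompetent, and treatment began once metastasis was detected. The treated mice received CD276 mAb-Exo-AAV, an antibody-tagged exosome-enclosed AAV vector that carries cmLumiOpto (a light-gated channel of the inner mitochondrial membrane with a luciferase that lights it), ViviRen (the luciferase substrate) and the PARP inhibitor olaparib. The tissue was taken after 3 weeks of treatment. Every mouse carried the 4T1 cells, and no library received cmLumiOpto or olaparib alone, so the parts of the combination cannot be told apart. The model was made by injection into the blood, so it holds no primary tumour. The labels name PBS for the controls and harvested tumour cells as the material, where the title of the control samples and the study's methods name saline and lung tissue. Markers of alveolar and airway cells such as Sftpc and Scgb1a1 were detected in all 4 libraries, though not every airway marker was. Epithelial keratins listed for the mammary tumour were also detected in all 4. Nothing in the labels says that libraries of a group came from separate mice, so the p-values measure the spread between these libraries, which may be technical.

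Entry into mitosis is driven by CDK1 with cyclin B, and the Aurora and Polo-like kinases then direct spindle assembly. The kinetochore ties each chromosome to spindle microtubules, and the spindle checkpoint holds back the anaphase-promoting complex (APC/C) until every chromosome is attached. In cycling cells these genes are transcribed mostly in G2 and mitosis, through promoters with CCAAT boxes and a cell cycle homology region (CHR) that the DREAM, B-MYB and FOXM1 complexes use, and in tumours their RNA levels are used as a measure of proliferation.

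Promoters were available from the RefSeq table (GRCm38.p6, 250 bases before to 50 after the start, the first listed start of each gene) for 34 of the 41 genes. To show the sequences searched in genes of either direction, the promoters of the genes with the lowest log2 fold changes after treatment (Kif4 and Cenpf) and the highest (Birc5 and Cenpa) among those 34 are printed. Capitals mark CHR (TTTGAA) and CCAAT box (CCAAT) letters on either strand. The sequences run 5′ to 3′ on the strand of the gene, at chrX:100625815-100626114 (plus strand), chr1:189688037-189688336 (minus strand), chr11:117848987-117849286 (plus strand) and chr5:30666636-30666935 (plus strand).
Kif4: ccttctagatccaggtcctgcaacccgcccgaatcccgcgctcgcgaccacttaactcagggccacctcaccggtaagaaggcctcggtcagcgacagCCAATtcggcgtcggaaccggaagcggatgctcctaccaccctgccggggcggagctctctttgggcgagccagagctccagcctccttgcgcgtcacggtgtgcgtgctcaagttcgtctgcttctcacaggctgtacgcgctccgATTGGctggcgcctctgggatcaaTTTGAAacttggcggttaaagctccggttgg
Cenpf: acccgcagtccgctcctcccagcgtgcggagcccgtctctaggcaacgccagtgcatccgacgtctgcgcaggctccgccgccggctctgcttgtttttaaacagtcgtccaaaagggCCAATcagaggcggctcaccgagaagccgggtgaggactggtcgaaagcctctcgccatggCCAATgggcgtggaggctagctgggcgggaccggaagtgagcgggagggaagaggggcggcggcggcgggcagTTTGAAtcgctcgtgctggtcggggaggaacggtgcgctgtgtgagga
Birc5: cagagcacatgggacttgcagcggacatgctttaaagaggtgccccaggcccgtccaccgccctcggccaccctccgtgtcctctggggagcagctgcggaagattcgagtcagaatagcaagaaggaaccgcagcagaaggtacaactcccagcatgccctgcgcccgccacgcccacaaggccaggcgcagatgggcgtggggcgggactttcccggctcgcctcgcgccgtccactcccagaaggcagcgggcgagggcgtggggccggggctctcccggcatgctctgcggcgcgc
Cenpa: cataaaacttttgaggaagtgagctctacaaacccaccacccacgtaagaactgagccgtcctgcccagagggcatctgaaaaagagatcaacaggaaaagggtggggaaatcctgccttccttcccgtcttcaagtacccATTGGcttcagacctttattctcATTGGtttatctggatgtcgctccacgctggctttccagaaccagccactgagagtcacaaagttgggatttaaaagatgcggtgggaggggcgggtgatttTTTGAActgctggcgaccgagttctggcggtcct

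Kif4, Cenpf and Cenpa each held 1 CHR match downstream of the start, at positions 20, 3 and 17, and 2 CCAAT matches. The Birc5 window held neither. Among all 34 promoters, 27 (79.4%) held the CHR letters, against 1344 of the 11022 tested genes with a promoter (12.2%). CCAAT was found in 27 (79.4%), against 38.4% of tested genes, and both in 24 (70.6%), against 4.98%. The letters TTTGGCGC or TTTCCCGC, used here for an E2F site, were found in 2 of 34 (5.88%), against 2.92% of tested genes. The motifs do not overlap in letters, and all were searched on both strands. Of the 34 CHR matches, 25 (73.5%) started within 50 bases of the start site, against 22.9% of the 1499 matches in tested genes. The CHR was found in 10 of the 13 genes that were higher after treatment and in 17 of the 21 that were lower. CCAAT was found in 8 of 13 and 19 of 21. A match describes letters in this window and is not a measured binding site.

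**Figure D1:**
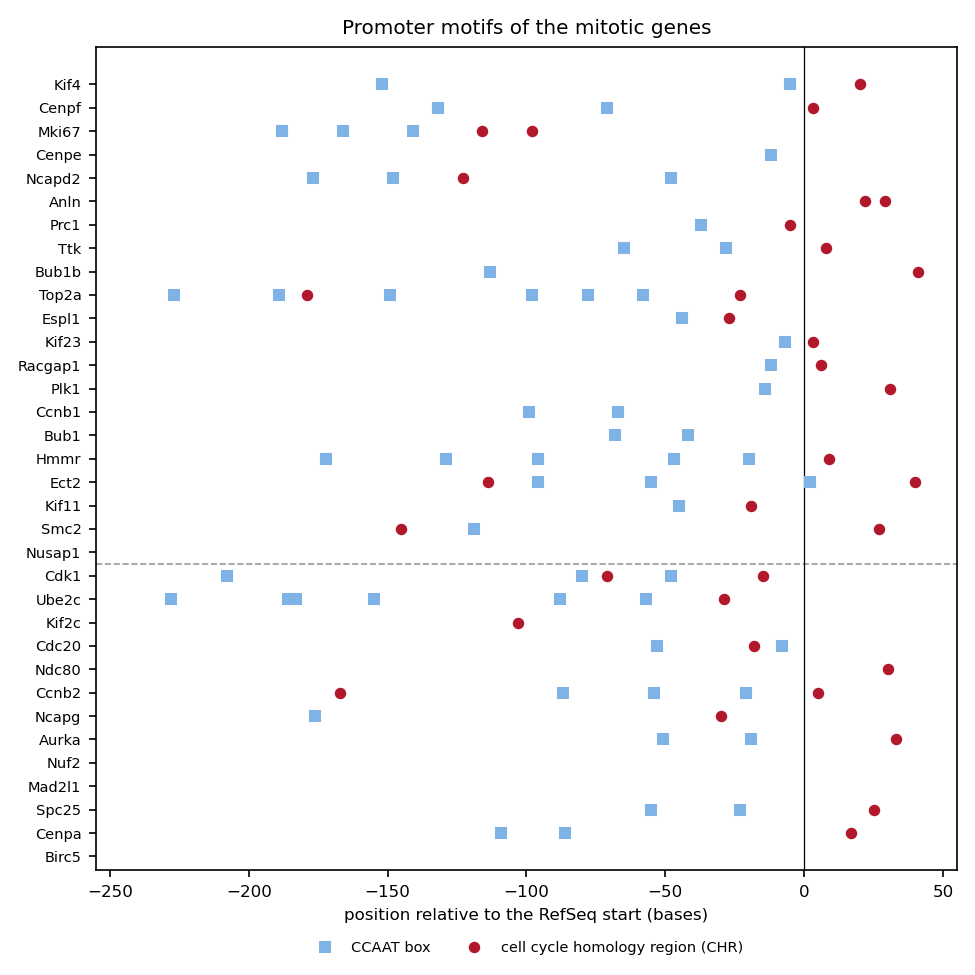
Positions of the CHR letters (red circles) and CCAAT letters (blue squares) in the promoters of 34 mitotic genes, in bases from the RefSeq start, with genes ordered from the lowest log2 fold change (top) to the highest and a dashed line between lower and higher genes. The CHR lay near the start, with 25 of 34 matches within 50 bases of it, on both sides of the dashed line.

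The deposited counts summed to 15263375 to 16755228 per library, and 3 counts corresponded to 0.179 to 0.197 CPM (a gene's counts as a share of its library, on a common scale), a floor that covers counting error only. All 41 genes passed the filter on low counts (15167 genes did). Their counts ran from 287 to 7951 per library and their levels from 17.3 to 499 CPM (scaled by TMM, a normalization between libraries), far above the floor. Per kilobase of transcript, which allows genes to be compared, the saline level was highest for Top2a (93.4 CPM per kb), Cdk1 (77.4), Ube2c (73.4) and Birc5 (56.3) and lowest for Espl1 (5.10), an 18.3-fold range. After treatment the highest were Cdk1 (78.4), Birc5 (78.1), Ube2c (75.4) and Top2a (73.7), and the order of the 41 genes was alike in both groups (Spearman's rho = 0.94 across 41 genes, which share their libraries).

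The mitotic genes did not all lie on the same side. In the cmLumiOpto/PARPi libraries 27 of the 41 had a negative log2 fold change and 14 a positive one, and the values ran from -0.73 (Kif4, a chromosome-bound kinesin) to 0.47 (Birc5, survivin), with a median of -0.16. Among all tested genes 48.0% had a negative value and the median was 0.02. Both treated libraries lay below both saline libraries in 18 of 41 genes (43.9%), against 27.8% of all tested genes. Both lay above them in 8 of 41 (19.5%), against 27.4%. The groups overlapped in the other 15, so 26 did not overlap, where 55.2% of all tested genes did not. With 1 library left in a group, groups fail to overlap more often in all genes. Without treated replicate 2, 33 mitotic genes were lower without overlap and 7 higher, against 39.4% and 42.2% of all genes tested there. Without treated replicate 1, 18 were lower and 16 higher, against 37.3% and 36.8%.

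None of the 41 genes had an adjusted p under 0.05 by the quasi-likelihood test of edgeR, adjusted by Benjamini-Hochberg over all tested genes, where 0% of the tested genes did. The smallest adjusted p of the mitotic genes was 0.138, for Cenpe. At an unadjusted p under 0.05, 7 of 41 (17.1%) were lower, against 12.0% of all tested genes, and 3 of 41 (7.32%) were higher, against 9.21%. Without treated replicate 2 the lower count was 15 and the higher count 0, against 11.8% and 9.82% of all genes tested there, and without treated replicate 1 they were 4 and 2, against 7.67% and 4.12%. The higher count was 1 without saline replicate 1 and 0 without saline replicate 2, against 9.20% and 4.22%. By DESeq2, 4 of the 41 genes passed an adjusted p of 0.05 (Cenpe, Cenpf, Mki67 and Foxm1, all lower, with adjusted p of 0.0201 to 0.0476), where 6.67% of all tested genes passed. With 2 libraries against 2, an exact two-sided permutation test of any single gene cannot go below 0.333.

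**Figure D2:**
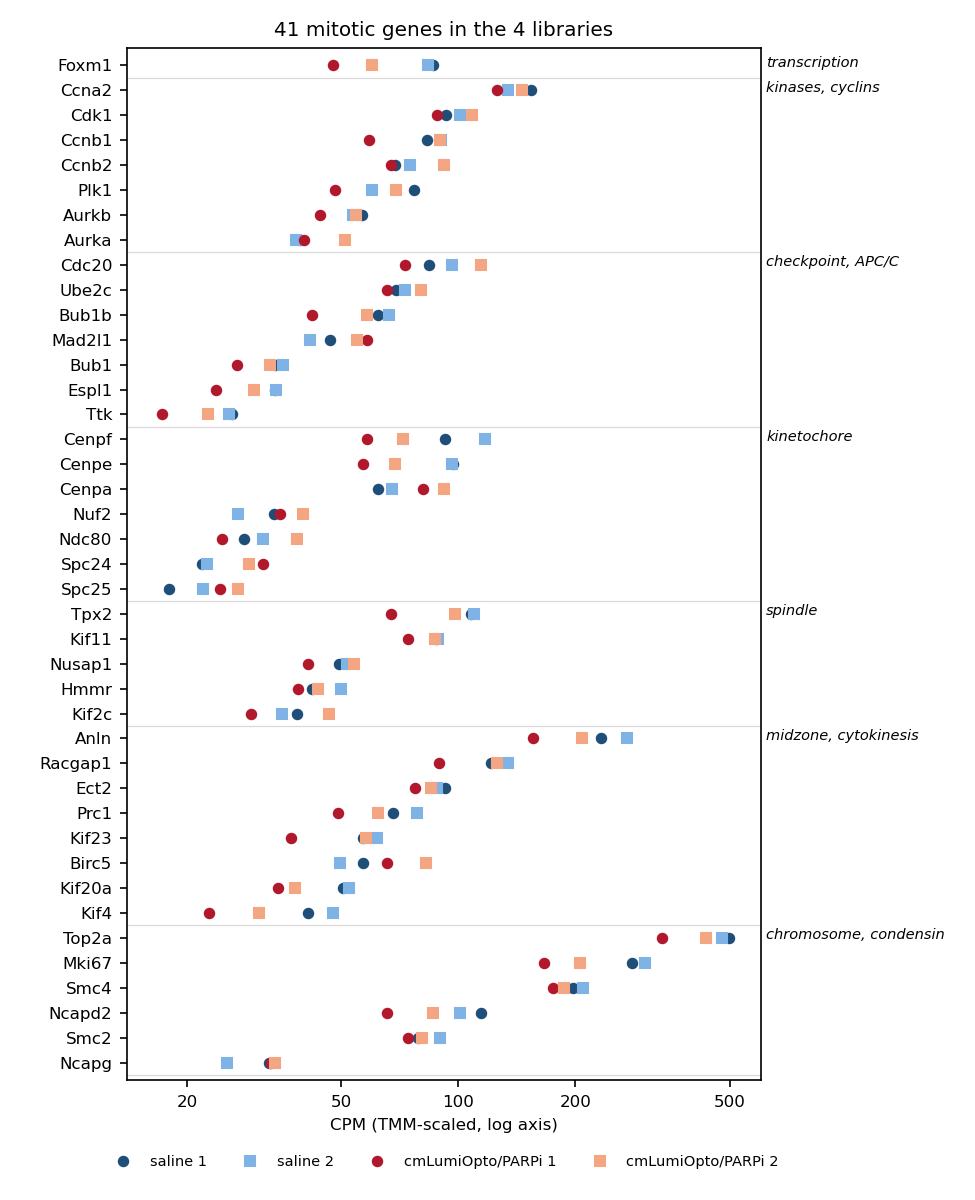
CPM (log axis) of the 41 mitotic genes in each library, by role, with saline in blue and cmLumiOpto/PARPi in red (circles for replicate 1, squares for replicate 2). Treated replicate 1 lay left of treated replicate 2 in 39 of the 41 genes.

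The 2 treated libraries differed from each other. Treated replicate 2 was above treated replicate 1 in 39 of 41 mitotic genes, with a median ratio of 1.25, while 49.8% of all tested genes were. The saline libraries were closer, with a median ratio of replicate 2 to replicate 1 of 1.05. The gap between the treated libraries exceeded the gap between the saline libraries in 32 genes and the difference between the group means in 18. Summed over the 41 genes, the level was 3612 and 3714 CPM in saline and 2768 and 3478 CPM after treatment, or 0.358% and 0.357% of the counts against 0.287% and 0.350%. Both treated sums were below both saline sums, but treated replicate 2 by little. Without treated replicate 1 the median log2 fold change of the 41 genes was -0.02, against -0.01 for all tested genes. Without treated replicate 2 it was -0.34, against 0.01. The sign of Cdk1, Ccnb2, Cdc20, Ube2c, Ndc80 and Kif2c turned from positive to negative without treated replicate 2 (values of -0.35 to -0.13), and that of Ccna2, Ccnb1, Plk1 and Nusap1 from negative to positive without treated replicate 1 (values of 0.0120 to 0.0910).

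Foxm1, the transcription factor of the G2 and mitotic genes (chromosome 6 from 128339930 to 128353109, the whole gene, as the deposited table gives it and as for the positions that follow, in the build that the processing notes name as mm39), was lower in both treated libraries. Its level was 85.9 and 83.7 CPM in saline and 47.5 and 59.9 CPM after treatment. The groups did not overlap, and the log2 fold change was -0.66 (SE 0.16, adjusted p = 0.142).

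The mitotic kinases and cyclins had the role median nearest to 0, but not once a trend with transcript length was subtracted (below). Of 7 genes 4 were lower and 3 higher, with a median log2 fold change of -0.09, none had an unadjusted p under 0.05, and the groups overlapped in 6. Plk1, the Polo-like kinase, had 77.0 and 59.8 CPM in saline and 48.0 and 69.1 CPM after treatment, with a log2 fold change of -0.23 (SE 0.23, adjusted p = 0.597). Its saline and treated values were interleaved. Aurka, the Aurora kinase of the spindle poles, had 39.0 and 38.1 CPM in saline and 40.1 and 51.0 CPM after treatment. Both treated values were above both saline values, the treated replicate 1 value by little, and the log2 fold change was 0.24 (SE 0.17, adjusted p = 0.451). Cdk1, the kinase of mitotic entry, had 93.1 and 101 CPM in saline and 88.3 and 108 CPM after treatment (log2 fold change 0.02, SE 0.15). Its partner Ccnb1 (cyclin B1) had a log2 fold change of -0.22 and Ccnb2 (cyclin B2) of 0.14, with levels of 68.7 and 75.2 CPM in saline and 66.9 and 91.9 CPM after treatment. Ccna2 (cyclin A2) and Aurkb, the kinase of the chromosomal passenger complex, had values of -0.09 and -0.16.

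Among the 7 genes of the spindle checkpoint and APC/C, the checkpoint kinases and separase were lower while the adaptor Mad2l1 was higher. The median log2 fold change was -0.21, 4 genes were lower and 3 higher, and none had an unadjusted p under 0.05. Mad2l1, which binds CDC20 to hold back the APC/C, had 46.7 and 41.4 CPM in saline and 58.1 and 54.8 CPM after treatment. Its groups did not overlap, with a log2 fold change of 0.36 (SE 0.14, adjusted p = 0.237). Espl1, separase, which cuts cohesin at anaphase, had 33.8 and 33.9 CPM in saline and 23.8 and 29.7 CPM after treatment, both lower (log2 fold change -0.34, SE 0.18, adjusted p = 0.325). The checkpoint kinases Ttk, Bub1b (a kinase by homology) and Bub1 were also lower in both treated libraries, with log2 fold changes of -0.37, -0.36 and -0.21. Cdc20, the APC/C activator, had 84.2 and 96.2 CPM in saline and 72.9 and 115 CPM after treatment, a log2 fold change of 0.06. Ube2c, the ubiquitin-conjugating enzyme of the APC/C, had 69.0 and 73.0 CPM in saline and 65.5 and 80.3 CPM after treatment, a log2 fold change of 0.04. In both genes the treated libraries lay on either side of the saline libraries.

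The kinetochore genes divided into a higher and a lower set. Of 7 genes 5 were higher and 2 lower, with a median log2 fold change of 0.30. At an unadjusted p under 0.05 there were 2 in each direction, where 9.21% of all tested genes were higher and 12.0% lower. Cenpe, the kinetochore kinesin that moves chromosomes to the spindle equator (chromosome 3 from 134918298 to 134979372), had 96.8 and 96.6 CPM in saline and 56.9 and 68.8 CPM after treatment. The log2 fold change was -0.62 (SE 0.15, adjusted p = 0.138). Cenpf, a large coiled-coil protein of the outer kinetochore (chromosome 1 from 189372803 to 189420283), had 92.3 and 117 CPM in saline and 58.1 and 72.1 CPM after treatment, a log2 fold change of -0.69 (SE 0.18, adjusted p = 0.148). Neither gene's groups overlapped.

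Cenpa, the histone H3 variant that marks the centromere (chromosome 5 from 30824121 to 30832174), lay on the other side. It had 62.0 and 67.4 CPM in saline and 81.0 and 91.8 CPM after treatment, with no overlap and a log2 fold change of 0.42 (SE 0.14, adjusted p = 0.188). The 4 subunits of the NDC80 complex, which binds microtubules, had positive values. Spc24 had 21.8 and 22.5 CPM in saline and 31.3 and 28.9 CPM after treatment (log2 fold change 0.44, SE 0.16, adjusted p = 0.212). Spc25 had 18.0 and 21.9 CPM in saline and 24.4 and 27.1 CPM after treatment (log2 fold change 0.36). Nuf2 had 33.5 and 27.1 CPM in saline and 34.8 and 39.7 CPM after treatment (log2 fold change 0.30). In these 3 subunits both treated libraries were above both saline libraries. In Ndc80, the subunit that touches the microtubule, they were not, with 28.0 and 31.4 CPM in saline and 24.7 and 38.4 CPM after treatment (log2 fold change 0.09).

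Of the 5 spindle genes 4 were lower and 1 higher, with a median log2 fold change of -0.13 and none at an unadjusted p under 0.05. Tpx2, which activates Aurora A on the spindle, had 108 and 110 CPM in saline and 67.0 and 97.8 CPM after treatment, with no overlap and a log2 fold change of -0.40 (SE 0.20, adjusted p = 0.309). Hmmr, a microtubule-binding protein of the spindle poles, had 42.1 and 49.9 CPM in saline and 38.7 and 43.5 CPM after treatment, with overlap (log2 fold change -0.16, SE 0.16, adjusted p = 0.597). Kif11, the motor that separates the poles, and Nusap1, a microtubule-bundling protein, had values of -0.13 and -0.09. Kif2c, a microtubule-depolymerizing kinesin, had 38.3 and 35.2 CPM in saline and 29.2 and 46.3 CPM after treatment, a log2 fold change of 0.04.

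The genes of the spindle midzone and cytokinesis were lower in 7 of 8 cases, with a median log2 fold change of -0.36. At an unadjusted p under 0.05, 2 were lower and 1 higher, where 12.0% and 9.21% of all tested genes were. Kif4 (chromosome X from 99669343 to 99770820), which shapes the midzone and chromosomes, had the most negative value of the 41 genes. Its level was 41.1 and 47.7 CPM in saline and 22.7 and 30.7 CPM after treatment, a log2 fold change of -0.73 (SE 0.20, adjusted p = 0.158). Kif20a, a midzone kinesin needed for cytokinesis, had 50.5 and 52.4 CPM in saline and 34.3 and 38.0 CPM after treatment, a log2 fold change of -0.51 (SE 0.14, adjusted p = 0.159). In both genes the treated libraries lay below the saline libraries. Anln (anillin of the contractile ring) and Prc1 (the midzone microtubule crosslinker) were lower without overlap, with log2 fold changes of -0.47 and -0.40, and so was Ect2, the RhoA exchange factor of the cleavage furrow, with -0.15. Kif23 and Racgap1, the partners in centralspindlin, had values of -0.32 and -0.25 with overlapping groups.

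Birc5 (chromosome 11 from 117740077 to 117746569), the survivin subunit of the chromosomal passenger complex, was the exception. It had 56.9 and 49.7 CPM in saline and 65.5 and 82.6 CPM after treatment, without overlap, and a log2 fold change of 0.47 (SE 0.17, adjusted p = 0.205). Its partner Aurkb, at 56.4 and 53.7 CPM in saline and 44.0 and 54.5 CPM after treatment, did not go with it.

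Of the 6 chromosome and condensin genes 5 were lower, with a median log2 fold change of -0.25. An unadjusted p under 0.05 was found for 2, both lower, where 12.0% of all tested genes were lower at that threshold. Mki67, the Ki-67 proliferation marker that coats mitotic chromosomes (chromosome 7 from 135291513 to 135318090), had 281 and 302 CPM in saline and 166 and 206 CPM after treatment. The treated libraries were both lower, with a log2 fold change of -0.65 (SE 0.16, adjusted p = 0.143). Top2a, the topoisomerase that untangles chromosomes, had 499 and 477 CPM in saline and 335 and 435 CPM after treatment, lower without overlap (log2 fold change -0.34, SE 0.18, adjusted p = 0.320). Ncapd2, a condensin I subunit, had 115 and 101 CPM in saline and 65.6 and 86.2 CPM after treatment, also without overlap (log2 fold change -0.51, SE 0.18, adjusted p = 0.198). Ncapg, another condensin I subunit, had 32.5 and 25.4 CPM in saline and 32.9 and 33.6 CPM after treatment, a log2 fold change of 0.20. Saline replicate 1 nearly equalled treated replicate 1 there. The core ATPases Smc2 and Smc4 had values of -0.12 and -0.17.

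Ratios of counts between 2 genes of the same library do not depend on the scaling between libraries. Cenpa had 0.221 and 0.223 counts per Mki67 count in saline and 0.487 and 0.445 after treatment, a 2.10-fold difference between the group means. Birc5 per Mki67 differed 2.16-fold (0.203 and 0.165 against 0.394 and 0.400), and Cenpa per Cenpf 2.14-fold (0.672 and 0.575 against 1.39 and 1.27). For these pairs the treated libraries were close to each other. The single levels of Birc5, Mki67 and Cenpf were further apart, with treated replicate 2 over replicate 1 at 1.26, 1.24 and 1.24. That of Cenpa was less so, at 1.13. The spread was also smaller than the group difference for Birc5 per Aurkb (1.55-fold), Aurka per its activator Tpx2 (1.58-fold) and Ncapg per Ncapd2 (1.67-fold), pairs of proteins that act together. For Mad2l1 per Bub1b (1.69-fold) the spread was smaller only by little, with 0.751 and 0.627 in saline and 1.39 and 0.941 after treatment. Other pairs differed less, overlapped or lay on the other side. Within the NDC80 complex, Spc24 per Ndc80 (0.779 and 0.716 against 1.27 and 0.752) and Nuf2 per Ndc80 (1.19 and 0.861 against 1.41 and 1.03) overlapped, and Spc25 per Ndc80 did not by little (0.642 and 0.698 against 0.986 and 0.705). Ccnb1 per Cdk1 (0.891 and 0.894 against 0.668 and 0.831) and Foxm1 per Ccnb1 (1.04 and 0.928 against 0.806 and 0.666) were lower after treatment. Smc2 per Smc4 was alike in the groups, with 0.398 and 0.426 in saline and 0.423 and 0.431 after treatment, which overlapped. In each pair that was higher after treatment without overlap the numerator had the shorter transcript, and in each lower pair the longer one. Lengths were 947 bases for Birc5 and 1466 for Cenpa, against 10061 for Mki67 and 11130 for Cenpf. Less the length trend described below, log2 fold changes were 0.19 (Birc5), 0.26 (Cenpa), -0.01 (Mki67) and -0.13 (Cenpf). For Ncapg and Ncapd2 they were 0.29 and -0.21. The part of length in these ratios was not tested. These 13 pairs were chosen with earlier results known, so no test was made.

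**Figure D3:**
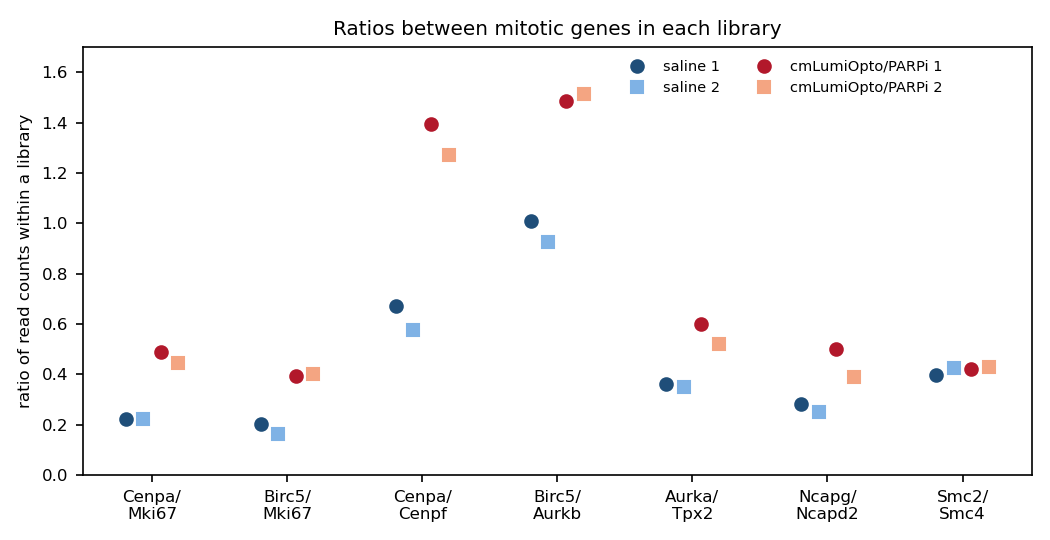
Ratios of read counts between mitotic genes within each library (saline in blue, cmLumiOpto/PARPi in red, 1 point per library). The treated points lay above the saline points for every pair shown but Smc2/Smc4, where the ratios were 0.398 to 0.431 in all 4 libraries. The numerator had the shorter transcript in every pair shown but Smc2/Smc4.

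The direction of a mitotic gene went with the length of its transcript. The 14 higher genes had a median transcript length of 1628 bases and the 27 lower genes of 3892 bases, and log2 fold change and length had a Spearman's rho of -0.75 across the 41 genes, which share their libraries. All tested genes showed the same trend more weakly (rho = -0.42 across 15034 genes with a length). In the shortest 2 of 5 equal groups of tested genes by length, 11 of the 12 mitotic genes were higher, against 72.4% of all tested genes there. In the longest 3 groups, 3 of the 29 mitotic genes were higher, against 38.3%. In the longest group the 11 mitotic genes were all lower, with a median of -0.51, and all tested genes had a median of -0.32.

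After subtraction of the trend with length and mean expression, estimated by loess over all tested genes, the median of the 41 genes was -0.03, close to the -0.02 of all tested genes, and 25 were lower and 16 higher. Of the 15034 tested genes with a length, 7863 were then lower and 7171 higher. What remained was -0.01 for Mki67, -0.13 for Cenpf and -0.17 for Cenpe, the longest transcripts. It was larger for Kif4 (-0.52), Kif20a (-0.44), Ttk (-0.40) and Foxm1 (-0.39), and on the other side for Ncapg (0.29), Cenpa (0.26) and Mad2l1 (0.23). By role, the kinetochore median went from 0.30 to 0.07 and that of midzone and cytokinesis from -0.36 to -0.15. That of chromosome and condensin turned from -0.25 to 0.14, and the spindle median went from -0.13 to -0.01. The checkpoint and APC/C median went from -0.21 to -0.15, with 6 of 7 genes lower. The median of kinases and cyclins moved away from 0, from -0.09 to -0.17, with 5 of 7 genes lower. The part of RNA integrity or library preparation in this trend was not tested.

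**Figure D4:**
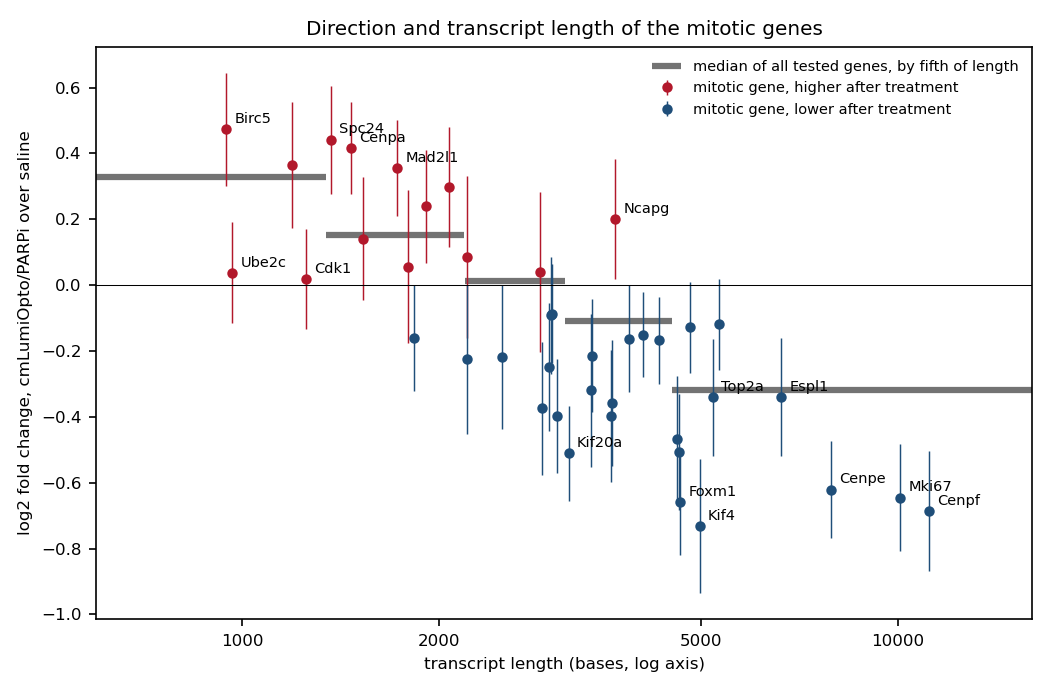
Log2 fold change (cmLumiOpto/PARPi over saline, bars show 1 SE, 2 libraries per group) of the 41 mitotic genes against transcript length in bases on a log axis, with grey lines for the median of all tested genes in 5 equal groups by length (the outer lines end at the plot's edges). Short genes such as Birc5 lay above 0, long genes such as Mki67 below it, and the grey medians ran from 0.33 to -0.32.

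The rest of the mitotic machinery showed a like mixture. Of 144 tested other mitotic genes 85 were lower and 59 higher, with a median log2 fold change of -0.07. At an unadjusted p under 0.05, 21 were lower and 7 higher, where 12.0% and 9.21% of all tested genes were. None had an adjusted p under 0.05 in edgeR. Without treated replicate 1 the median was 0.02. Lower values were most frequent among 34 spindle genes (25 lower, 7 of them at an unadjusted p under 0.05) and 19 condensin and cohesin genes (15 lower, 6 of them). With the length trend subtracted, 24 of the 34 spindle genes were lower (median -0.15), but 10 of the 19 condensin and cohesin genes (median -0.03, from -0.28), whose median transcript length was 4684 bases. Of the 15034 tested genes with a length, 7863 were then lower. Clasp1, a microtubule plus-end protein, had 87.2 and 87.4 CPM in saline and 45.0 and 53.5 CPM after treatment (log2 fold change -0.83, adjusted p = 0.138). Ckap5, a microtubule polymerase, followed with -0.74, the cohesin loader gene Nipbl with -0.59 and the cohesin regulator Pds5a with -0.48. Haus5, a subunit of the augmin complex, had a value of 1.31 at a low level of 0.815 to 2.11 CPM, and Haus8, of the same complex, 0.61. In cytokinesis (16 genes, 10 lower) the septin gene Septin9 had -0.79 and citron kinase Cit -0.77, while Chmp2a, of the abscission ESCRT-III machinery, had 0.44 and the midbody gene Cep55 0.29.

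Among 26 checkpoint and APC/C genes 16 were higher, and the APC/C subunits Anapc13 (log2 fold change 0.69, transcript of 589 bases) and Anapc11 (0.51, 962 bases) stood opposite to the subunits Anapc1 (-0.55, 8942 bases) and Cdc27 (-0.45, 5425 bases). Anapc13 had 20.4 and 23.2 CPM in saline and 38.3 and 32.1 CPM after treatment, and Anapc1 had 161 and 171 CPM in saline and 114 and 112 CPM after treatment. Among 28 other kinetochore genes, 14 in each direction, the CENP-T-W-S-X subunits Cenpx (0.88) and Cenps (0.63) were higher, and Hjurp (-0.41), the chaperone of the Cenpa product, and the scaffold gene Knl1 (-0.33) were lower. With the length trend subtracted, 19 of these 28 genes were lower and 9 higher (median -0.11, from 0.01). Of the 26 checkpoint and APC/C genes, 14 were then lower and 12 higher, and of the 15034 tested genes with a length 7863 were lower. Of 21 kinase and phosphatase genes 11 were lower, with Mastl (-0.63) and Wee1 (-0.58) among them, and Cks2 (0.38) and Ccnf (0.24) were higher. For condensin and cohesin the higher genes with the smallest p were Esco1 (0.30) and Cdca5 (0.14, overlapping).

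Of 26 genes of the DREAM, E2F and inhibitor list 15 were lower, 4 of them at an unadjusted p under 0.05, with E2f7 (-0.82) and E2f3 (-0.66) lower and E2f2 (0.61) and Cdkn1c (0.73) higher. Of 8 G1 cyclin and CDK genes 5 were higher and 3 lower, 2 of the lower at an unadjusted p under 0.05. Ccnd1, cyclin D1, had 1377 and 1667 CPM in saline and 829 and 1161 CPM after treatment (log2 fold change -0.61, adjusted p = 0.211), and its partner Cdk6 had -0.71. Cdk2 and Ccne2 had 0.34 and 0.61, the latter with overlapping groups. The 52 DNA replication genes, active in S phase, were balanced, with 26 in each direction and a median of 0.00. At an unadjusted p under 0.05, 6 were higher and 5 lower. Over all tested genes the shares at that threshold were 9.21% higher and 12.0% lower. Pole4 (0.64) and Rpa3 (0.62), subunits of polymerase epsilon and replication protein A, were higher, and Pole (-0.74), the catalytic subunit of polymerase epsilon, and Mcm6 (-0.59) of the replicative helicase were lower. Over the other mitotic (144 tested), regulator (26), G1 (8) and replication (52) lists no gene had an adjusted p under 0.05 in edgeR. By DESeq2 12 genes of these lists did, where 6.67% of all tested genes passed.

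Marker RNA of other cell types differed between the same libraries, with no marker at an adjusted p under 0.05 in edgeR. The summed level of 8 alveolar type 2 markers was 1719 and 464 CPM in saline and 8328 and 2973 CPM after treatment, and 7 of the 8 were higher at an unadjusted p under 0.05. The other, Abca3, was lower without overlap, with 147 and 129 CPM in saline and 125 and 94.0 CPM after treatment. Sftpc, at 1020 and 176 CPM in saline and 6153 and 2092 CPM after treatment, was most of the sum in all but saline replicate 2. The 8 airway markers summed to 1154 and 82.0 CPM in saline and 5697 and 3051 CPM after treatment, all higher without overlap, 6 at an unadjusted p under 0.05. Most of the airway sum was Scgb1a1, with 1088 and 74.7 CPM in saline and 5305 and 2794 CPM after treatment. The saline libraries differed from each other most in this list, and Ccdc78 had 0 counts in saline replicate 2. Tekt1 (0.068 CPM) and Rsph1 (0.136 CPM) lay below the floor in that library. The 8 fibroblast markers summed to 16523 and 15732 CPM in saline and 6496 and 9220 CPM after treatment, all lower without overlap, 7 at an unadjusted p under 0.05. Most of the fibroblast sum was Fn1, with 11356 and 12149 CPM in saline and 4814 and 7329 CPM after treatment.

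The 10 epithelial markers listed for the mammary tumour summed to 4025 and 4400 CPM in saline and 3866 and 5008 CPM after treatment, which overlapped. None of the 10 had an unadjusted p under 0.05. In bulk tissue their RNA from tumour and from lung epithelium cannot be told apart, so this sum is not a measure of tumour content. The 8 T and NK cell markers summed to 51.8 and 19.1 CPM in saline and 114 and 30.1 CPM after treatment, and the 8 macrophage markers to 2877 and 2218 CPM and to 4724 and 3350 CPM. Most of the macrophage sum was Lyz2, with 1693 and 1141 CPM in saline and 3619 and 2441 CPM after treatment. The groups overlapped in 5 of the 8 macrophage markers. Cd68 (log2 fold change 0.39) was also higher without overlap, and Mrc1 (-1.06) was lower without overlap. The B cell sums were 46.3 and 4.97 CPM in saline and 53.7 and 31.7 CPM after treatment, and the 8 endothelial markers summed to 542 and 433 CPM and to 796 and 437 CPM. The T and NK cell, B cell, endothelial, neutrophil, granulocyte precursor and erythroid sums all overlapped between the groups. By gene, the groups overlapped in 7 of the 8 T and NK cell, 3 of the 6 B cell and 6 of the 8 endothelial markers. None of the T and NK cell markers had an unadjusted p under 0.05 in edgeR. Treated replicate 1, with the lowest sum of mitotic genes, had the highest alveolar and airway sums and the lowest fibroblast sum. The part of other cell types in the levels of the mitotic genes was not tested. In bulk tissue, fewer dividing cells and less mitotic RNA per cell cannot be told apart.

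**Figure D5:**
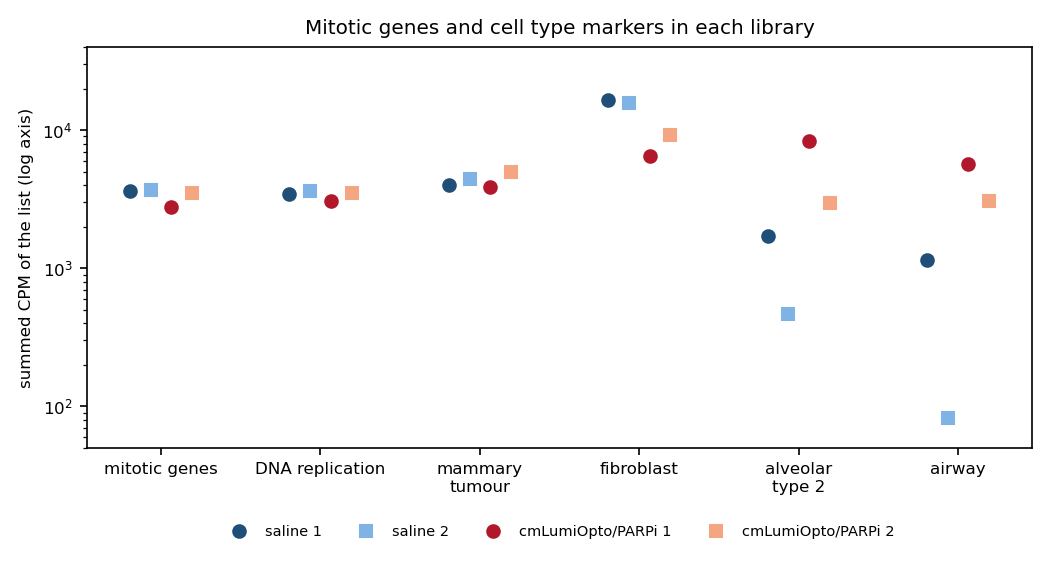
Summed CPM (log axis) of the 41 mitotic genes, the 52 DNA replication genes and 4 lists of cell type markers in each library (saline in blue, cmLumiOpto/PARPi in red, 1 point per library). Mitotic sums ranged from 2768 to 3714 CPM, while alveolar type 2 sums ranged from 464 to 8328 CPM. Most of each fibroblast sum was Fn1 and most of each airway sum Scgb1a1.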

How the data were processed

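Lung tissue with 4T1 metastasis was sequenced from 2 saline and 2 cmLumiOpto/PARPi samples, grouped by their titles. The authors mapped reads with HISAT2 and deposited read counts per gene, not normalized. The counter and the strand setting are not given in the sources used here, so reads of overlapping genes cannot be told apart. The study's methods name GRCm38 and the submitters' processing notes mm39. Of 52125 genes matched to GENCODE M21 (GRCm38), 2.85% had the same position and 96.8% the same span, so gene positions are printed as the table gives them and promoter positions as GRCm38.p6. The RNA kit named in the labels also differs from that of the methods.

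Counts were tested in R 4.3.3 with edgeR 4.0.16 (TMM, filterByExpr at min.count 10, then glmQLFit and glmQLFTest at their default settings, Benjamini-Hochberg adjustment over 15167 genes, threshold 0.05). The standard error is the log2 fold change divided by the square root of F, as a size. CPM used the TMM factors. Transcript length was taken from GENCODE M21 by Ensembl identifier and was found for all 41 genes. It was that of the APPRIS principal transcript, or the lower median where a gene had several. Genes without one used their protein-coding transcripts, or else all their transcripts, in the same way. The length trend was a loess fit (span 0.5) over tested genes. Replicates differed beyond counting error (chi-square per degree of freedom 24.1 in saline, 41.1 in treated libraries), beside totals of 15263375 to 16755228 counts per library. The scripts were tested on simulated data. Genes given with full statistics were Mki67, Top2a and the 2 of each role with the smallest p. Genes opposite to most were given with values, and up to 2 genes in each direction came from each other list. Cenpa, Spc24, Birc5, Ncapd2 and the other genes with further values were added with their values seen. The members and lists were chosen with earlier results of these data known. Alternatives were DESeq2 1.42.0, its size factors in edgeR, no filter, glmQLFit without its legacy option, the replicate block, the length trend, and leaving out each library.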

Additional observations from a re-analysis of the deposited data

How the results depend on the processing

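The median log2 fold change of the 41 mitotic genes stayed below 0 under each alternative run, from -0.34 without treated replicate 2 to -0.02 without treated replicate 1. The median over all tested genes was 0.01 without treated replicate 2 and -0.01 without treated replicate 1. With the length trend subtracted, the mitotic median was -0.03 and that of all tested genes -0.02, so the medians were then nearly alike. The number of mitotic genes past an adjusted p of 0.05 was 0 in edgeR (10 at an unadjusted p under 0.05), with DESeq2's size factors, without the legacy option and without any 1 library. It was 5 (12.2%) without the filter on low counts and 4 (9.76%) by DESeq2, all lower (Cenpe, Cenpf, Mki67 and Foxm1, with Kif4 as the fifth). Over all genes 2000 of 25435 (7.86%) passed without the filter, 1011 of 15167 (6.67%) by DESeq2 and between 0 and 31 without 1 library, against 0 (3221 at an unadjusted p under 0.05). In the other cell cycle lists (146, 26, 8 and 52 genes listed) 18 passed without the filter and 12 by DESeq2. The cause was not tested.

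Labels number the samples of both groups 1 and 2, but the samples share only a number, and deviations of same-numbered libraries had a Spearman's rho of 0.30 across genes. Under the replicate block, 1822 genes (12.0%) passed over all genes, and at a like share 5 mitotic genes (12.2%: Cenpe, Cenpf, Kif4, Mki67 and Foxm1) and 24 genes of the other lists, and 11 mitotic genes (26.8%) in place of 7 were lower at an unadjusted p under 0.05, against 15.9% of all tested genes.

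Over all genes, 31 and 9 passed an adjusted p of 0.05 without saline replicate 1 and 2, and 2 and 0 without treated replicate 1 and 2. The count of mitotic genes whose groups did not overlap was 26, and 28 to 40 without 1 library (40 without treated replicate 2, 33 of them lower, and 34 without treated replicate 1, 16 of them higher). With 1 library in a group the share over all genes tested was also higher, 73.3% to 81.7% in place of 55.2%. The 7 lower genes at an unadjusted p under 0.05 became 15 without treated replicate 2 and 4 without treated replicate 1, and the 3 higher genes 0 to 2 (1 without saline replicate 1, 0 without saline replicate 2 and 0 without treated replicate 2). The median of the other mitotic genes was 0.02 without treated replicate 1, against -0.07. Directions turned for 10 genes, whose log2 fold changes without 1 library ran from -0.16 to 0.16 (Cdk1), -0.22 to 0.0139 (Ccna2), -0.57 to 0.0555 (Ccnb1), -0.13 to 0.35 (Ccnb2), -0.53 to 0.0120 (Plk1), -0.33 to 0.34 (Cdc20), -0.14 to 0.18 (Ube2c), -0.29 to 0.37 (Ndc80), -0.32 to 0.0910 (Nusap1) and -0.35 to 0.33 (Kif2c). With a group down to 1 library, that library is assumed to vary like the other group. With at least 287 counts per mitotic gene and library, the spread between replicates limited precision more than depth did.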
